A study of Mus musculus with 2 samples.

Results

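Genes that carry glucose from the cell surface to lactate or into the pentose phosphate pathway, 34 in all, were followed isoform by isoform in cells of the newborn mouse kidney. They are the glucose transporters Slc2a1, Slc2a2 and Slc2a3, the glycolytic enzymes from hexokinase to pyruvate kinase with their regulators Pfkfb2 and Pfkfb3, the lactate dehydrogenase subunits Ldha and Ldhb, the gatekeepers of the pyruvate dehydrogenase step Pdk1 and Pdha1, the lactate transporters Slc16a1 and Slc16a3, and the 7 pentose phosphate enzymes. The members were chosen by gene symbol, and all 34 were found in the feature lists of both libraries, which hold 55488 genes. They matched 35 rows, because Aldoa is listed under 2 gene identifiers, and the second of these rows, with 57 UMIs in the WT and 46 in the KO library over all cells, was not used. UMIs are unique molecular identifiers, each of which stands for 1 captured RNA molecule.

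The study prepared single-cell libraries from neonatal (P0) kidneys with 10x Genomics droplets and 3′ chemistry, 1 library per genotype. Both libraries carry Six2Cre, a Cre recombinase active in nephron progenitors and hence inherited by podocytes and by the tubule segments that descend from them, from the proximal to the distal tubule. The library labelled Flcn WT is, by the series' design text, heterozygous (Six2Cre; Flcn flox/+), and the library labelled Flcn KO is homozygous (Six2Cre; Flcn flox/flox). They are called WT and KO below. The source label names the tissue embryonic kidney, and how many animals were pooled, if any, is not stated.

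With 1 library per genotype there was no replicate and no test, and no difference below can be assigned to the genotype rather than to the pair of libraries. Levels are given as CPM, the usual depth-normalised count, here a gene's UMIs relative to all nuclear-encoded UMIs of the same cell class and library, and each ratio is KO over WT with an exact 95% interval that covers counting error only. A gene was compared in a class when it had at least 50 UMIs there over both libraries, and it was counted as higher or lower at a ratio of 1.5-fold or more in either direction. UMIs of 3′ libraries are not corrected for capture, so comparisons between isoforms are comparisons of UMIs.

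After filtering, 4000 WT and 4798 KO cells remained, with a median of 20967.5 and 18458 UMIs per cell. Marker genes placed them in 11 classes, 6 from the Six2 lineage and 5 outside it. These are marker-defined classes rebuilt from the counts, each named in the sense of "like" that cell type. Flcn itself, the targeted gene, was still counted in every class, at 7.40 to 47.5 CPM in WT and 8.07 to 41.4 CPM in KO. Over the Six2 lineage it was at 13.4 CPM in WT and 11.8 CPM in KO, a ratio of 0.883 (0.804 to 0.969), and outside it at 9.85 and 10.1 CPM. Within the lineage its ratio was 0.621 (0.535 to 0.719) in proximal tubule and 1.76 (1.34 to 2.33) in podocytes. The intervals of the other classes of the lineage included 1. A 3′ tag may lie outside the deleted part of a floxed gene, which the labels do not describe, so this count does not check the genotype labels.

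Glycolysis splits glucose into pyruvate in the cytosol. Hexokinase traps glucose as glucose 6-phosphate, phosphofructokinase commits it to the pathway, pyruvate kinase makes pyruvate, and lactate dehydrogenase converts pyruvate and lactate into each other. The pentose phosphate pathway branches off at glucose 6-phosphate and yields NADPH and ribose. In the mature kidney the proximal tubule is known for making glucose and burning fatty acids, and the distal nephron for its use of glucose, and many of the enzymes exist as isoforms encoded by separate genes. Flcn encodes folliculin, a regulator of lysosomal nutrient signalling and of the transcription factors TFEB and TFE3.

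In the WT library the members marked out the nephron segments by isoform. Slc2a2, the low-affinity transporter GLUT2 that moves glucose across the basal membrane of proximal tubule cells, was at 289 CPM in proximal tubule and at 8.23 CPM or less in every other class. Slc2a1, the GLUT1 transporter, was highest in the loop of Henle at 129 CPM, followed by distal tubule at 77.8 CPM and ureteric bud and collecting duct at 67.7 CPM, and lowest in podocytes at 18.2 CPM. Slc2a3, the high-affinity GLUT3, was seen mainly outside the nephron, at 33.9 CPM in immune cells, 32.1 CPM in mural cells and 26.8 CPM in stroma, against 5.07 CPM at most in the classes of the Six2 lineage.

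Hexokinase followed the same division. Hk1, the housekeeping hexokinase, reached 229 CPM in the loop of Henle and 149 CPM in distal tubule but only 1.56 CPM, or 35 UMIs, in proximal tubule. Hk2, the inducible form, was at 41.0 CPM in nephron progenitors, 31.9 CPM in early nephron cells and 51.6 CPM in immune cells, and at 3.07 CPM in proximal tubule. Hk1 supplied 98.0% of the hexokinase UMIs of endothelium (97.8% in podocytes), 93.4% in the loop, 41.7% in progenitors and 24.0% in immune cells. Of these classes, then, the progenitors and immune cells had most of their hexokinase UMIs from Hk2.

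**Figure D1:**
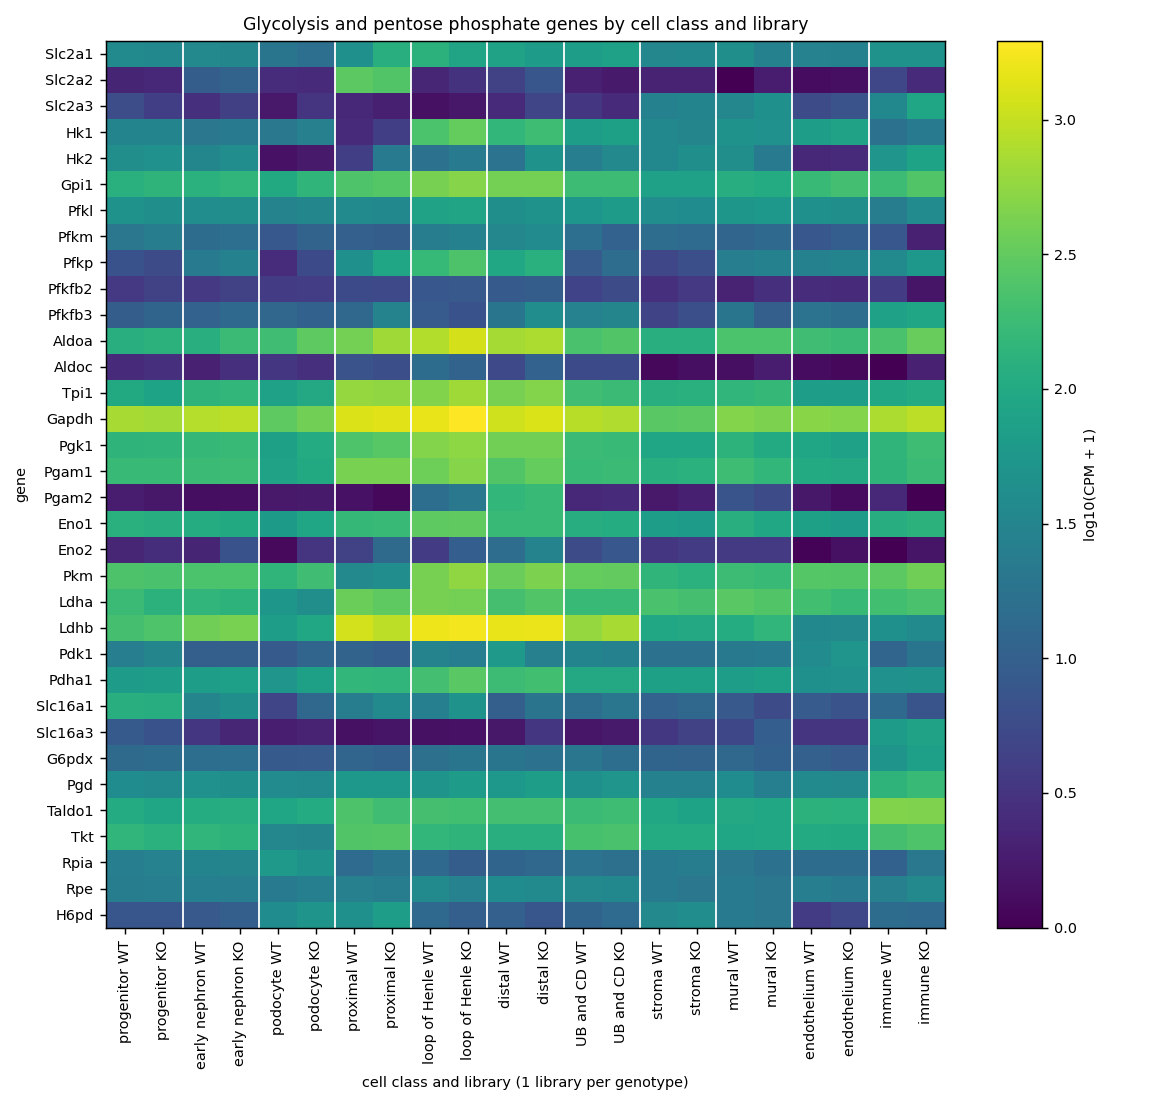
Level of each of the 34 genes (rows) in each cell class and library (columns), as log10(CPM + 1); UB and CD is ureteric bud and collecting duct. Slc2a2 is bright in the proximal tubule columns, Hk1, Pfkp and Ldhb in the loop and distal columns, and Taldo1 in the immune columns, in both libraries.

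Phosphofructokinase isoforms also differed by segment. Pfkp, the platelet-type subunit, was at 161 CPM in the loop of Henle, 91.2 CPM in distal tubule and 44.4 CPM in proximal tubule, and at 5.84 CPM in progenitors. Pfkl, the liver-type subunit, varied less, between 23.1 CPM in immune cells and 77.6 CPM in the loop. Pfkm, the muscle-type subunit, was at 32.5 CPM or less in every class. The minor isoforms Aldoc (up to 13.6 CPM, in the loop) and Pfkfb2 (up to 7.45 CPM, in distal tubule) were low throughout. Pfkp therefore made up 61.3% of the UMIs of the 3 subunits in the loop and 7.98% in progenitors.

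The later enzymes were high in the loop, the distal tubule and, for some, the proximal tubule. Tpi1 (585 CPM) and Pgam1 (424 CPM) were highest in proximal tubule, and Aldoa (812 CPM) and Pgk1 (479 CPM) in the loop. Gapdh reached 1510 CPM in the loop, 1330 CPM in proximal tubule and 1120 CPM in distal tubule, against 283 CPM in stroma. Pkm, which encodes the pyruvate kinase of most tissues, was at 417 CPM in the loop and 34.6 CPM in proximal tubule, its lowest level in any class. Pgam2, the muscle form of phosphoglycerate mutase, was at 151 CPM in distal tubule, 14.5 CPM in the loop and 6.11 CPM or less elsewhere. It held 37.6% (35.5 to 39.8) of the UMIs of Pgam1 and Pgam2 in WT distal tubule and 33.5% (30.9 to 36.1) in KO distal tubule, so this muscle isoform marked the segment in both libraries. After each cell was thinned to 3000 UMIs, 28.6% of WT and 32.0% of KO distal cells still had a Pgam2 UMI, against 0 of 294 WT endothelial cells, which at this thinned depth allows up to 1.02% of cells with a UMI and says nothing of the cells that express the gene. Before thinning these shares were 52.8% and 63.5% of distal cells and 2.03% of WT endothelial cells, with 19448, 38338 and 22143 UMIs per cell at the median.

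At the end of the pathway the lactate dehydrogenase subunits divided the Six2 lineage and the ureteric bud and collecting duct from the other classes. Ldhb, the subunit typical of tissues that take up lactate, was at 1600 CPM in the loop, 1510 CPM in distal tubule and 1180 CPM in proximal tubule, and at 33.7 CPM in endothelium. Ldha, the subunit typical of lactate-producing tissues, spanned a narrower range, from 54.0 CPM in podocytes to 409 CPM in the loop. The Ldhb share of lactate dehydrogenase UMIs was 87.9% in distal tubule, 79.7% in the loop, 77.1% in proximal tubule and 54.9% in progenitors, against 29.9% in stroma, 18.2% in immune cells and 14.6% in endothelium. Slc16a1, the lactate and pyruvate transporter MCT1, was highest in nephron progenitors at 117 CPM, while Slc16a3, the lactate exporter MCT4, was highest in immune cells at 65.2 CPM and no higher than 7.47 CPM elsewhere.

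**Figure D2:**
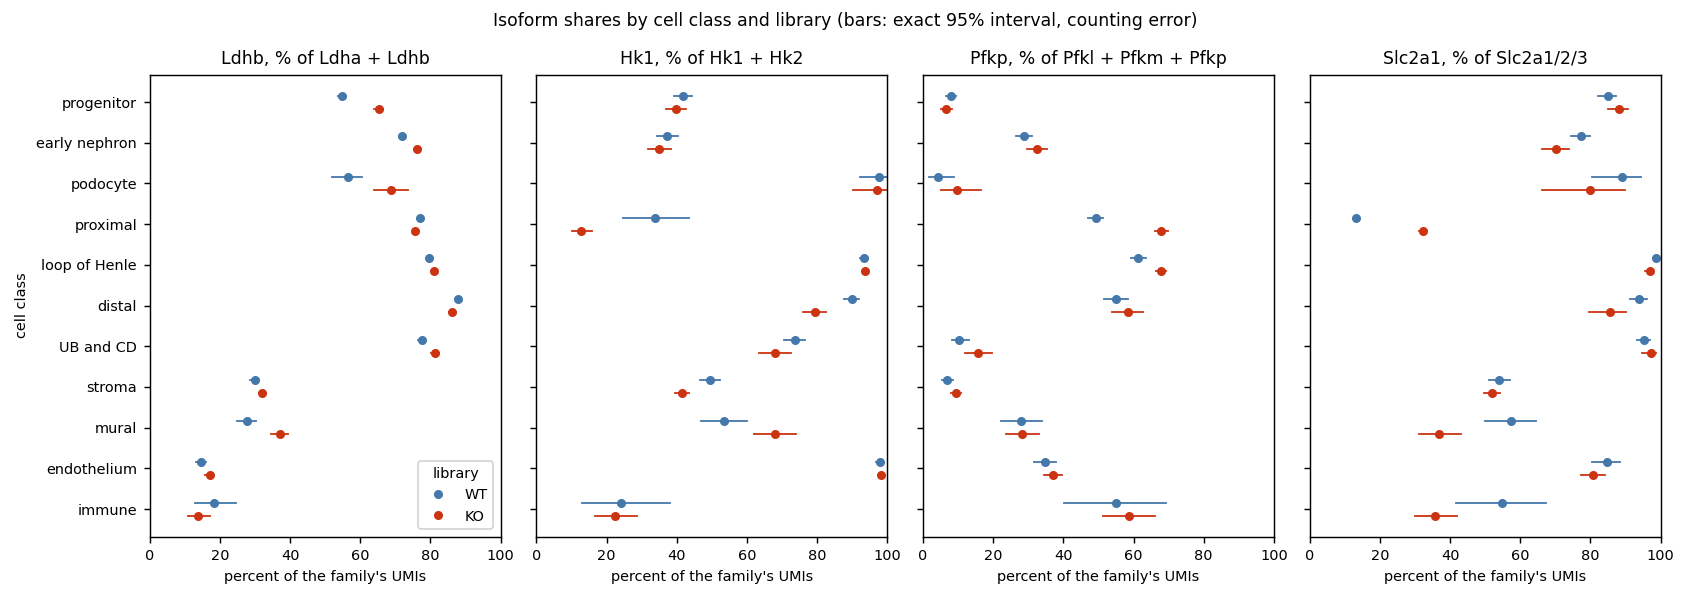
Share of each enzyme or transporter family's UMIs held by Ldhb, Hk1, Pfkp and Slc2a1 (x axis, percent) in each cell class (y axis), WT in blue and KO in red, with exact 95% intervals. The proximal tubule pairs for Hk1 (33.7% and 12.8%), Pfkp (49.2% and 67.9%) and Slc2a1 (13.3% and 32.4%) stand apart, as do others, among them the mural pairs for Slc2a1 (57.4% and 37.0%) and Hk1 (53.6% and 68.1%), the distal pair for Hk1 (89.9% and 79.4%) and the progenitor pair for Ldhb (54.9% and 65.3%).

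The pentose phosphate enzymes had a separate profile, with the immune cells at the top. Taldo1, transaldolase, was at 467 CPM there against 237 CPM in proximal tubule, the next highest class. Pgd, 6-phosphogluconate dehydrogenase, was at 137 CPM in immune cells and 56.3 CPM or less elsewhere, and G6pdx, the enzyme that commits glucose to the pathway, at 48.9 CPM and 18.6 CPM or less. Rpia, ribose 5-phosphate isomerase, was instead highest in podocytes at 57.6 CPM, and H6pd, the glucose 6-phosphate dehydrogenase of the endoplasmic reticulum, in proximal tubule at 44.5 CPM and podocytes at 38.7 CPM. Tkt, transketolase, spread between 32.1 CPM in podocytes and 253 CPM in proximal tubule, and Rpe, ribulose-phosphate epimerase, between 21.4 and 38.9 CPM.

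Comparing the libraries, 12 of the 34 members were 1.5-fold higher or lower in KO in at least 1 class of the Six2 lineage, where 45.1% of the 17002 genes compared in at least 1 of those classes were. Over all 11 classes 20 members were not past this mark in any, where 51.1% of all genes were past it in at least 1. Proximal tubule had 8 of 32 members higher and 1 lower, where 10.0% of all genes compared there were higher and 9.23% lower. Early nephron had 3 of 32 higher and 1 lower (3.99% and 4.22% of all genes), and distal tubule 4 of 30 higher and 1 lower (9.79% and 8.86%). The loop of Henle had 2 of 31 higher and 2 lower (10.9% and 13.7%), podocytes 1 of 24 higher and 0 lower (10.2% and 6.13%), and nephron progenitors 0 of 32 higher and 1 lower (4.67% and 5.09%). These shares of members are near those of all genes in several classes, and the proximal tubule had the most members past the mark.

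The median log2 ratio of the members was 0.36 in podocytes, 0.20 in the loop, 0.17 in distal tubule, 0.11 in early nephron, and 0.02 in both progenitors and proximal tubule, with medians over all genes compared between -0.02 and 0.07 in these classes. Hk2, Pfkfb3, Aldoa, Eno2 and Slc16a1 were past 1.5-fold higher in 2 or more classes of the lineage. The share of all genes higher in 2 or more of these classes was not counted, so this is not a trait of the members. Summed over the 16 glycolytic enzymes, UMIs in KO were 1.38-fold (1.32 to 1.44) those of WT in podocytes, 1.31-fold (1.29 to 1.32) in the loop, 1.15-fold in distal tubule, 1.12-fold in proximal tubule, 1.10-fold in early nephron and 0.968-fold in progenitors. The same sum over the 7 pentose phosphate enzymes ranged from 0.905-fold in progenitors to 1.06-fold in podocytes among these classes. A rise was not confined to the lineage. In immune cells, outside it, the glycolytic sum was 1.29-fold (1.21 to 1.36) and the median log2 ratio of the members 0.30, with -0.05 over all genes. The other classes outside it had sums between 0.906-fold and 1.01-fold and medians between -0.10 and 0.06.

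**Figure D3:**
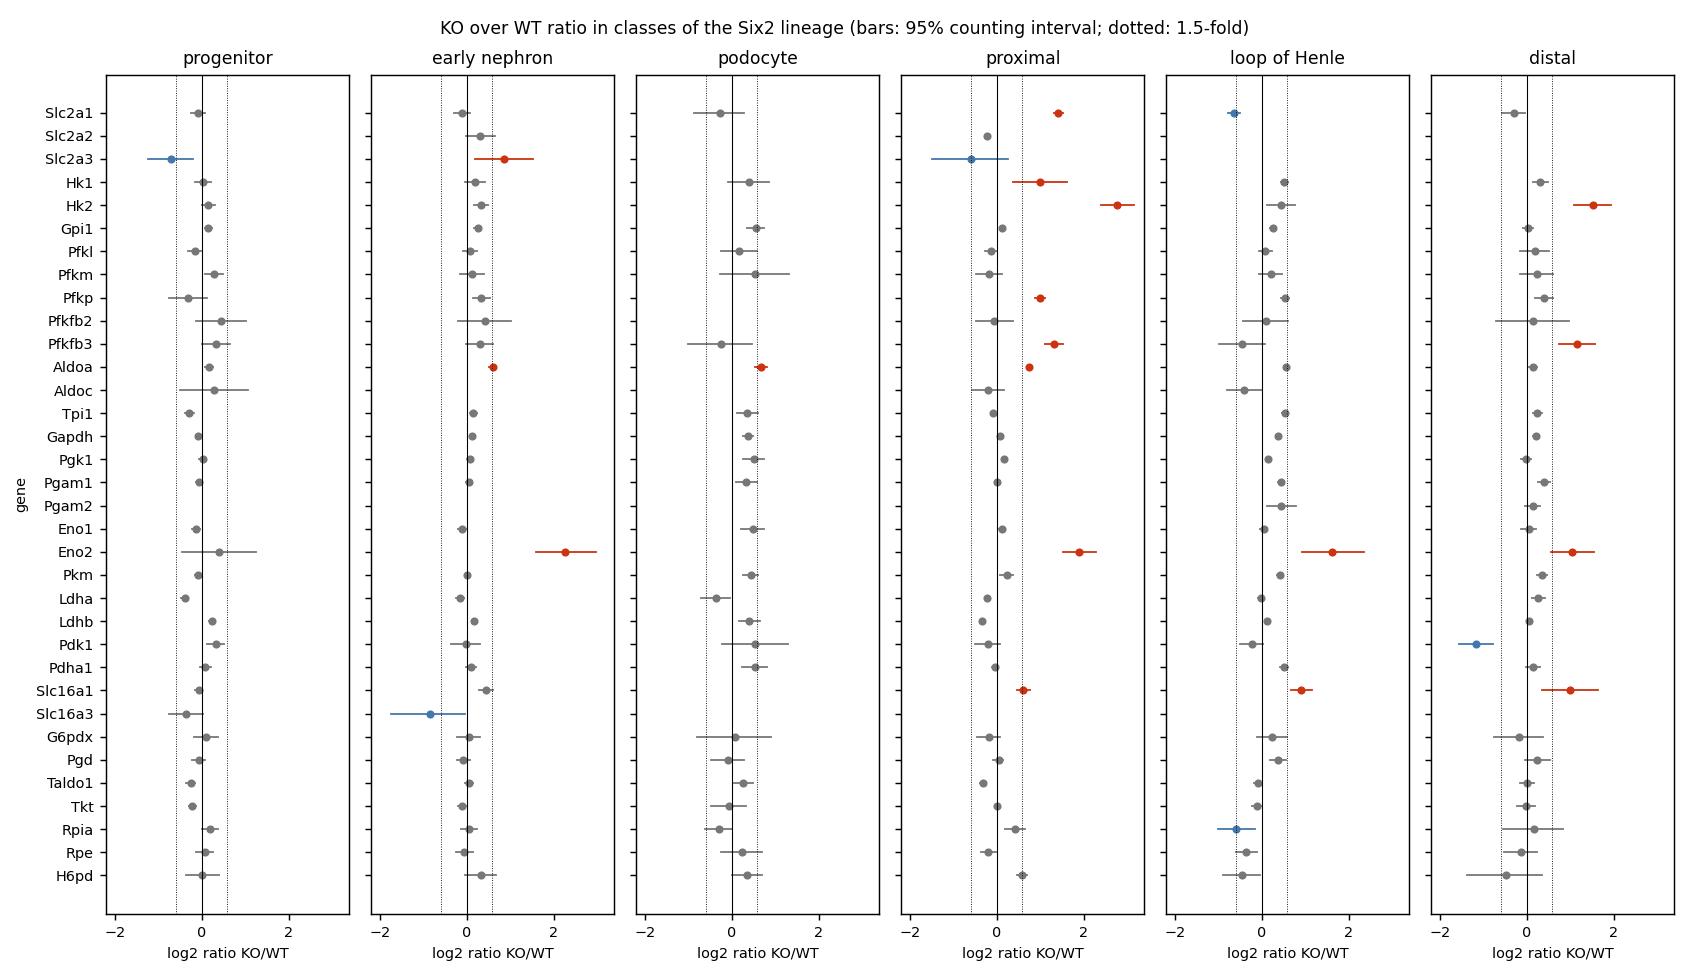
log2 ratio of KO over WT (x axis) for each gene compared (y axis) in the 6 classes of the Six2 lineage, with 95% counting intervals; dotted lines mark 1.5-fold, red points are higher and blue points lower past that mark. The proximal panel has the most red points, and Eno2 is red in 4 of the 6 panels.

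In proximal tubule cells the 8 members past the mark upward were Slc2a1, Hk1, Hk2, Pfkp, Pfkfb3, Aldoa, Eno2 and Slc16a1. Slc2a1 had 1000 UMIs in 482 WT cells and 2524 UMIs in 416 KO cells, which is 44.5 against 119 CPM and a ratio of 2.67 (2.48 to 2.87). Hk2 had 69 and 448 UMIs, or 3.07 against 21.1 CPM, a ratio of 6.86 (5.31 to 8.97), and Hk1, with 35 and 66 UMIs, was at 1.56 and 3.10 CPM. Pfkp went from 44.4 to 88.2 CPM, a ratio of 1.99 (1.84 to 2.15), and its log2 ratio was 0.56, below the mark, when cells were thinned to 3000 UMIs. Pfkfb3, which makes the fructose 2,6-bisphosphate that activates phosphofructokinase, was at 11.4 CPM in WT and 28.4 CPM in KO, a ratio of 2.49 (2.15 to 2.89). Of the phosphofructokinase subunits Pfkp alone passed the mark, with Pfkl at 0.911 and Pfkm at 0.889.

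Further down the pathway most proximal tubule members were nearly level. Aldoa, the aldolase of muscle and most embryonic tissue, was at 404 and 674 CPM, a ratio of 1.67 (1.62 to 1.71), and Eno2, the neuron-type enolase, at 3.47 and 12.9 CPM, a ratio of 3.72 (2.89 to 4.85). Slc16a1 was at 23.6 and 36.2 CPM, a ratio of 1.53 (1.37 to 1.71). Gapdh, Pgk1, Pgam1, Eno1, Tpi1 and Gpi1 had ratios between 0.938 and 1.12. Ldha was at 351 and 300 CPM and Ldhb at 1180 and 926 CPM, a ratio of 0.784 (0.770 to 0.799) for Ldhb. The segment's own transporter Slc2a2 was at 289 and 247 CPM, and Slc2a3, with 32 and 20 UMIs, had a ratio of 0.660 (0.358 to 1.19), an interval that includes 1.

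The isoform shares moved with these levels. In proximal tubule the Slc2a1 share of the UMIs of Slc2a1, Slc2a2 and Slc2a3 was 13.3% (12.5 to 14.1) in WT and 32.4% (31.3 to 33.4) in KO. Hk2 was the larger part of hexokinase in both libraries, with Hk1 at 33.7% in WT and 12.8% in KO, and intervals that do not overlap. Pfkp was 49.2% of the phosphofructokinase UMIs in WT and 67.9% in KO.

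The cells behind this class differed between the libraries. Most WT cells of the class (278 of 482) were in cluster 18, and most KO cells were in clusters 11 and 14 (198 and 147 of 416). At a finer clustering, 187 KO cells and 9 WT cells formed cluster 39, and 187 WT cells and 19 KO cells formed cluster 19. Cluster 39 had the proximal tubule injury marker Havcr1 (KIM-1) at 216 CPM in its KO cells. Injury genes could enter the clustering, so this level is not independent of it. Of the 17 tubule injury genes compared in the whole class 11 were higher in KO (10.0% of all genes), with a median log2 ratio of 1.02. The summed level of the 16 proximal tubule markers was 17000 CPM in WT and 12400 CPM in KO, with none at 0. The part of this cell state in the ratios was not tested.

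Slc2a1 and Hk2 followed cluster 39. Its 187 KO cells held 2033 of the 2524 Slc2a1 UMIs and 350 of the 448 Hk2 UMIs of KO proximal tubule. Slc2a1 stood at 204 CPM there, while in cluster 29, which held 138 WT and 140 KO cells, it was at 64.4 CPM in WT and 42.8 CPM in KO, and in cluster 27 at 45.7 and 46.0 CPM. Without the clusters held at 90% or more by 1 library, the log2 ratio of Slc2a1 in proximal tubule turned from 1.41 to -0.31. Hk2 was at 35.1 CPM in cluster 39 in KO, with 0 UMIs in its 9 WT cells, and at 5.57 and 12.7 CPM in cluster 29, and its log2 ratio went from 2.77 to 1.10 when those clusters were left out. The Pfkfb3 log2 ratio dropped from 1.31 to 0.24 in the same way, and that of Hk1 from 0.98 to 0.53.

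Other members were higher in KO within the shared clusters as well. Pfkp was at 54.8 CPM in WT and 102 CPM in KO in cluster 27, and at 31.3 and 56.0 CPM in cluster 29. Aldoa was at 360 and 601 CPM in cluster 27 and at 316 and 518 CPM in cluster 29. Eno2 was at 1.81 and 9.13 CPM and at 3.91 and 14.4 CPM in these clusters, with 11 and 28 and with 26 and 89 UMIs. In cluster 39 Eno2 was not higher, with 17.2 CPM in the 9 WT cells and 14.7 CPM in the KO cells. Without the clusters of 1 library the log2 ratios of Pfkp and Aldoa were 0.76 and 0.67, and 5 of 31 members were higher and 0 lower, where 5.98% and 6.66% of all genes were. The shared clusters were themselves not alike, with Havcr1 at 7.89 CPM in WT and 31.6 CPM in KO in cluster 27. In cluster 29 Havcr1 had 1 and 9 UMIs, and the loop marker Slc12a1 was at 19.0 and 4.71 CPM. The part of this in the ratios was not tested.

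**Figure D4:**
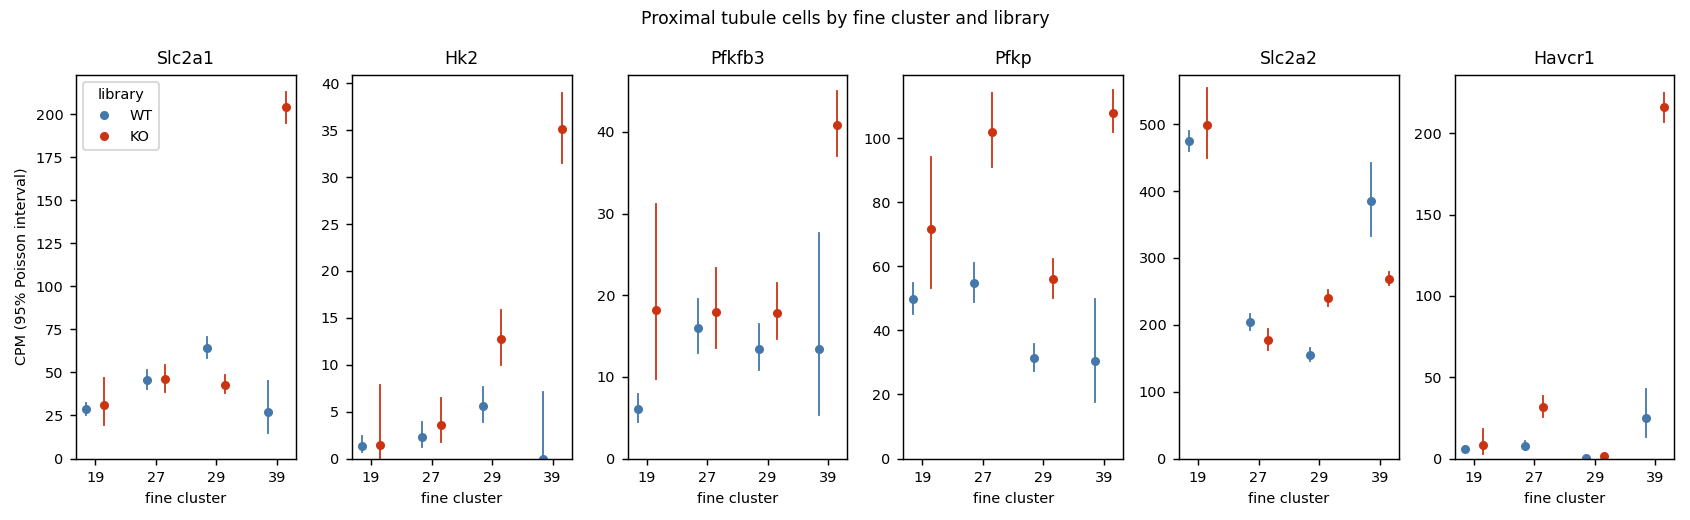
Level in CPM (y axis, each panel from 0) of 5 members and of Havcr1 in the 4 finer clusters of proximal tubule cells (x axis), WT in blue and KO in red, with 95% Poisson intervals. In cluster 39, which has 9 WT cells, KO Slc2a1 reaches 204 CPM and Hk2 35.1 CPM, whereas Pfkp is higher in KO in all 4 clusters.

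Within cluster 39 the Hk2 UMIs came from few cells. Of its 187 KO cells 45 had an Hk2 UMI, and the 19 cells richest in Hk2 held 84.0% of the Hk2 UMIs, where the 19 deepest cells held 19.3% of all nuclear-encoded UMIs. Slc2a1 was at 500 CPM in the 45 cells with Hk2 and at 99.3 CPM in the 142 cells without it, and Pfkfb3 at 64.9 and 32.3 CPM. Havcr1 was at 480 and 122 CPM in the same cells, and Slc2a2 at 139 and 315 CPM. The 2 sets were of like depth, with medians of 55499 and 52021 UMIs per cell, and Gapdh (1490 and 1710 CPM) and Ldha (301 and 329 CPM) were near level. Aldoa was lower in the cells with Hk2 (737 and 888 CPM), and Eno2 was level (14.6 and 14.8 CPM). These are cells of 1 library, split by their own Hk2 count, and are given without a test.

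Shares of cells with a UMI were also compared. In proximal tubule 9.54% of WT and 21.6% of KO cells had an Hk2 UMI, and 4.05% of WT endothelial cells, a class whose hexokinase is nearly all Hk1, at medians of 42024.5, 47718 and 22143 UMIs per cell. Thinned to 3000 UMIs per cell, the shares were 1.26% (0.462 to 2.71) and 2.91% (1.51 to 5.03) in proximal tubule, with intervals that overlap, and 0.340% in WT endothelium, so the thinned level of Hk2 is too near that of 1 UMI for a change to be read from it. For Slc2a1 the shares were 64.5% and 76.4% before thinning, and 11.5% (8.79 to 14.7) and 18.4% (14.8 to 22.5) after it. Thinning left out 4 WT and 4 KO proximal tubule cells.

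The promoters of Hk2 and Slc2a1 are shown because both genes were high in the same cells. The sequences are the 250 bases before the RefSeq start, in the direction of the gene, from build GRCm38.p6, with Hk2 at chr6:82774455-82774704 on the minus strand and Slc2a1 at chr4:119108495-119108744 on the plus strand. Capitals mark ACGTG on either strand (CACGT is its complement), the core of the hypoxia response element, which also lies inside the E-box CACGTG.
Hk2: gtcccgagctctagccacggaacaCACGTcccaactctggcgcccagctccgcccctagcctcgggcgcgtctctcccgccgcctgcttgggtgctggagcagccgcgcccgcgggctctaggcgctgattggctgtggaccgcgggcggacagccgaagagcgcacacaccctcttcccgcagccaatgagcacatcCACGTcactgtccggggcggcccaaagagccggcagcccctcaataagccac
Slc2a1: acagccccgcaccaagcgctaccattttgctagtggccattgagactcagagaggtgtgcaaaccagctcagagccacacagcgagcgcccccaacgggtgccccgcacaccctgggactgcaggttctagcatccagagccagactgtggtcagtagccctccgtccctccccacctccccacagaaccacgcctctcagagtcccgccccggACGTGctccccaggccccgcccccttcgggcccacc
Hk2 has 2 matches, which begin 226 and 52 bases before the start, and Slc2a1 has 1, which begins 36 bases before it. Of the 32851 RefSeq promoters given, 16.6% hold ACGTG in this window, as do 32.7% of the 49 promoters of 33 members, some of which have several. Slc2a3 has no entry.

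In the loop of Henle Slc16a1 and Eno2 passed the mark upward and Slc2a1 and Rpia downward. Slc2a1 had 1000 UMIs in 136 WT cells and 944 UMIs in 200 KO cells, or 129 against 83.1 CPM, a ratio of 0.642 (0.587 to 0.703). Slc16a1 was at 25.7 and 48.2 CPM, a ratio of 1.87 (1.59 to 2.22), and Eno2, with 22 and 99 UMIs, at 2.84 and 8.71 CPM, a ratio of 3.06 (1.91 to 5.11). Rpia was at 12.4 and 8.27 CPM, a ratio of 0.666 (0.496 to 0.895) that stayed past the mark in 3 of 11 other settings. The call on Slc2a1 was lost when cells over 10% mitochondrial UMIs were left out (log2 ratio -0.50) and at a coarser clustering (-0.46).

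Below the mark of 1.5-fold, Aldoa (1.46), Pfkp (1.45), Tpi1 (1.44), Hk1 (1.43), Pdha1 (1.42), Pgam1 (1.36), Pkm (1.33) and Gapdh (1.30) were all higher in KO loop cells. Pdha1 encodes the catalytic subunit of pyruvate dehydrogenase, which acts on pyruvate inside the mitochondrion. Pgk1 (1.11), Ldhb (1.09), Eno1 (1.03) and Ldha (0.991) were closer to level. Pentose phosphate members were mixed, with Pgd at 1.30 and Rpe at 0.783.

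The loop class, too, was made of different cells in the libraries. At the finer clustering 123 of its WT cells were in cluster 21 with 30 KO cells, and 170 of its KO cells were in cluster 37 with 13 shallow WT cells. Within cluster 21 Gapdh was at 1490 CPM in WT and 1020 CPM in KO, Aldoa at 803 and 586 CPM, and Ldha at 404 and 170 CPM. Without cluster 37 the median of the members was -0.34 in place of 0.20, where that of all genes was 0.10, and 2 of 30 members were higher and 9 lower, where 13.6% and 10.4% of all genes were. Slc2a1 (128 and 68.6 CPM) was lower and Slc16a1 (25.7 and 42.6 CPM) and Eno2 (2.87 and 7.22 CPM, 22 and 10 UMIs) were higher in KO in cluster 21 also, and Hk2 was at 16.2 and 53.4 CPM. The cells of cluster 21 were not alike either, with the loop markers Umod at 1050 and 115 CPM and Slc12a1 at 6910 and 2920 CPM. Their median depth was 48600 UMIs in WT and 28192.5 UMIs in KO. Of 20 cell cycle genes 17 were lower in KO loop cells (13.7% of all genes), and the summed level of the 16 proximal tubule markers was 5160 CPM in WT and 7380 CPM in KO, with 1 at 0 in each. Podocyte markers summed to 363 and 1120 CPM in these cells, early nephron markers to 1640 and 830 CPM and distal markers to 2530 and 1550 CPM, while the loop's own markers were at 10900 CPM in both. That equal sum held unlike single markers. Umod was at 1050 CPM in the WT cells of cluster 21 and 3600 CPM in the KO cells of cluster 37. Slc12a1 was at 6910 and 4660 CPM in the same cells. The part of these differences in the ratios was not tested.

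The distal tubule, with 123 WT and 63 KO cells, had Hk2, Pfkfb3, Eno2 and Slc16a1 higher and Pdk1 lower in KO. Hk2 had 81 and 122 UMIs, or 16.8 and 48.0 CPM, a ratio of 2.86 (2.14 to 3.84), while Hk1 was at 149 and 185 CPM, a ratio of 1.24. Pfkfb3 was at 18.2 and 40.5 CPM, a ratio of 2.23 (1.66 to 2.99). Eno2 was at 13.9 and 28.7 CPM, a ratio of 2.07 (1.47 to 2.93), and Slc16a1 at 8.90 and 17.7 CPM, a ratio of 1.99 (1.28 to 3.10). Pdk1, the kinase that shuts pyruvate dehydrogenase, had 281 and 66 UMIs, or 58.1 and 26.0 CPM, a ratio of 0.447 (0.336 to 0.586), its only value past 1.5-fold in the classes where it could be compared.

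Averaged over cells instead of summed, the distal log2 ratios of Pfkfb3 and Slc16a1 were 0.16 and 0.25, below the mark, whereas that of Hk2 stayed past it. The median depth of the distal cells was 19448 UMIs in WT and 38338 UMIs in KO. Markers of immune cells summed to 39.1 CPM in WT and 277 CPM in KO distal cells, with 5 and 2 of the 13 at 0, and those of red cells to 89.8 and 402 CPM. Podocyte markers summed to 277 and 1300 CPM, loop markers to 3860 and 1590 CPM, and ureteric bud and collecting duct markers to 3250 and 1950 CPM. Distal tubule markers summed to 6680 CPM in WT and 3420 CPM in KO, with 0 and 1 of the 11 at 0, and 14 of 20 cell cycle genes were lower in KO (8.86% of all genes). The part of these differences in the ratios was not tested.

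In podocytes only Aldoa passed the mark, at 189 CPM in 158 WT cells and 301 CPM in 97 KO cells, a ratio of 1.59 (1.44 to 1.76). Of the 24 members compared 18 were higher in KO by any amount, where 58.2% of all genes compared were. Gpi1, glucose 6-phosphate isomerase, was at 98.2 and 143 CPM, a ratio of 1.46, Pgk1 at 74.1 and 105 CPM and Eno1 at 60.4 and 84.3 CPM. Ldha was lower, at 54.0 and 41.8 CPM, a ratio of 0.774 (0.612 to 0.974), and the Ldhb share of lactate dehydrogenase went from 56.4% (52.1 to 60.6) to 68.9% (63.8 to 73.7). Slc16a1, with 17 and 32 UMIs, fell 1 UMI short of the minimum, at 3.87 and 12.0 CPM. The Aldoa call was lost when cells were thinned to 3000 UMIs (log2 ratio 0.49). The podocyte markers themselves summed to 52100 CPM in WT and 36000 CPM in KO, with 0 of the 10 at 0 CPM, and the part of this in the ratios was not tested.

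In early nephron cells, the renal vesicle and S-shaped body stages that follow the progenitors, Eno2 had 25 UMIs in 352 WT cells and 77 UMIs in 304 KO cells. The levels were 1.20 and 5.76 CPM, a ratio of 4.81 (3.03 to 7.88), and the Eno2 share of enolase UMIs was 1.10% in WT and 5.46% in KO. Aldoa was at 116 and 175 CPM, a ratio of 1.51 (1.42 to 1.59) that came from the larger cluster 13 (130 and 213 CPM) more than from cluster 19 (88.3 and 100 CPM). Its log2 ratio was 0.21 after thinning, below the mark. Slc2a3 (37 and 43 UMIs, ratio 1.81, 1.14 to 2.90) and Slc16a3 (48 and 17 UMIs, ratio 0.553, 0.298 to 0.979) rested on few UMIs, and each was below the mark at a coarser clustering, with log2 ratios of 0.27 and -0.31.

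In nephron progenitors, the cells in which Six2Cre is active, most members were near level. Slc16a1 was at 117 and 112 CPM, Hk2 at 41.0 and 45.5 CPM, Hk1 at 29.4 and 30.0 CPM and Slc2a1 at 35.3 and 33.2 CPM. Slc2a3 alone passed the mark, with 99 and 48 UMIs, or 5.07 and 3.09 CPM, a ratio of 0.609 (0.422 to 0.868), and it did not pass it in 6 of 10 other settings, where its log2 ratio reached -0.27. Ldha was lower and Ldhb higher, at 172 and 130 CPM and at 209 and 245 CPM, with ratios of 0.759 (0.718 to 0.802) and 1.17 (1.12 to 1.23). The Ldhb share of lactate dehydrogenase was 54.9% (53.7 to 56.0) in WT and 65.3% (64.0 to 66.5) in KO progenitors. This share was also higher in KO in early nephron (72.0% and 76.3%), podocytes (56.4% and 68.9%) and the loop (79.7% and 81.1%). It was lower in KO in proximal tubule (77.1% and 75.6%) and distal tubule (87.9% and 86.3%), where the distal intervals overlap. Outside the lineage it was higher in KO in mural cells (27.6% and 37.0%) and ureteric bud and collecting duct (77.6% and 81.4%). It was also higher in KO in stroma (29.9% and 32.1%), where the intervals meet at 31.1%, and in endothelium (14.6% and 17.1%), where they overlap. In immune cells it was lower in KO, at 18.2% (12.8 to 24.7) and 13.8% (10.9 to 17.1), with intervals that overlap.

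Followed across the lineage, Eno2 was the member with the most classes past the mark, a ranking among the members that was not set beside all genes. It was 4.81-fold higher in early nephron, 3.72-fold in proximal tubule, 3.06-fold in the loop and 2.07-fold in distal tubule, and at 1.28 and 1.67 CPM in progenitors. In podocytes it had 1 and 6 UMIs. Outside the lineage its levels were 4.67 and 6.72 CPM in ureteric bud and collecting duct and 2.30 and 2.81 CPM in stroma, with intervals of the ratio that include 1. For those 4 classes its call held in the other settings that left it enough UMIs to be compared. These were 10 in early nephron, 12 in proximal tubule, 10 in the loop and 8 in distal tubule. After thinning to 3000 UMIs per cell, at most 15 cells per class and library had an Eno2 UMI in these classes. Eno2 fell under the UMI minimum in the loop without cluster 37, with 22 WT and 10 KO UMIs, so its loop call was not checked there. Even in KO it was a small part of enolase, at most 14.6% (11.6 to 18.0) in distal tubule, the rest being Eno1, and its levels in KO proximal and loop cells, 12.9 and 8.71 CPM, were below the 13.9 CPM of WT distal tubule.

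Slc16a1 was past the mark in 3 classes and at 30.8 and 42.0 CPM in early nephron, a ratio of 1.36 (1.22 to 1.53). In proximal tubule its value was close to the mark and fell below it in 5 of 13 other settings, whereas in the loop it stayed above it in all 11. KO loop cells with a Slc16a1 UMI made up 80.5% against 51.5% in WT, and 13.8% (9.28 to 19.4) against 7.03% (3.27 to 12.9) after thinning, with intervals that overlap. Slc16a3 was at 0.388 and 0.440 CPM in the loop, so Slc16a1 held 98.5% and 99.1% of the UMIs of the pair.

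**Figure D5:**
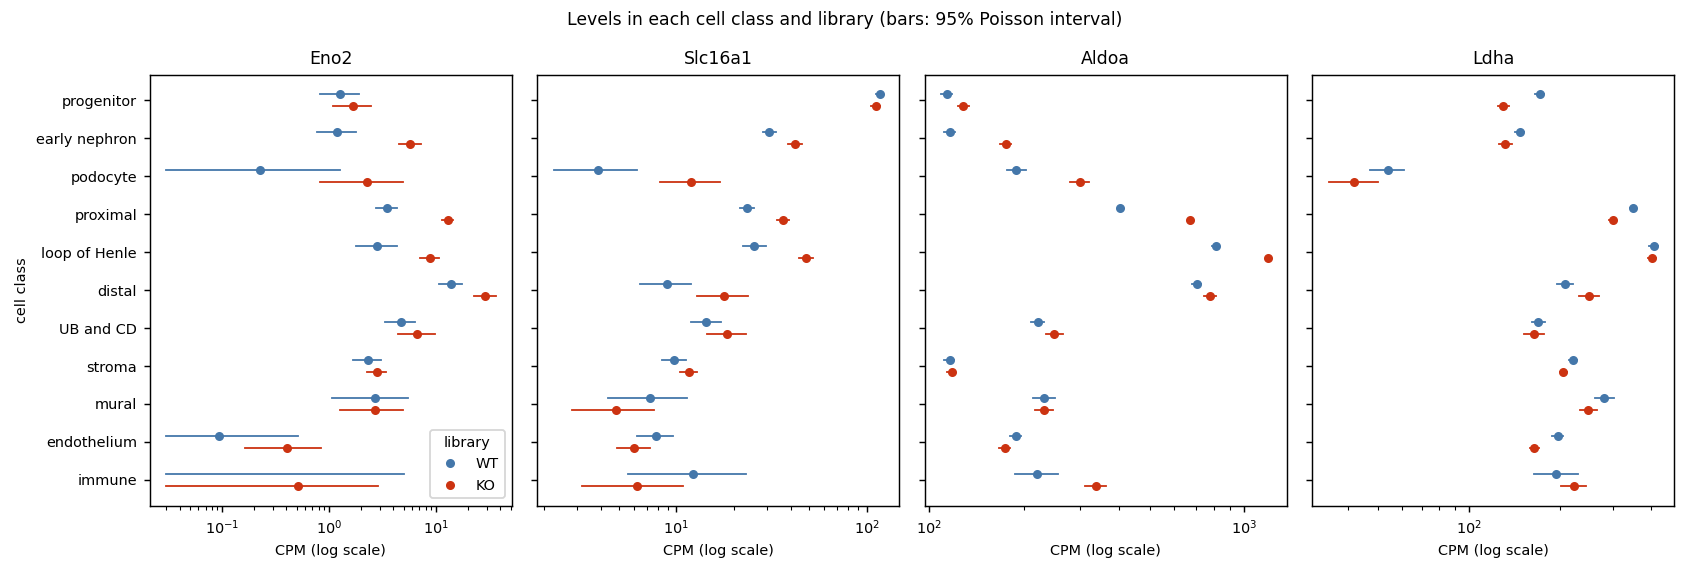
Level in CPM (x axis, log scale) of Eno2, Slc16a1, Aldoa and Ldha in each cell class (y axis), WT in blue and KO in red, with 95% Poisson intervals; a point at 0 is not drawn. The KO points of Eno2 lie to the right of the WT points in early nephron, proximal tubule, loop and distal tubule, and those of mural cells coincide.

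Promoters of Eno2 and Slc16a1 are shown for the same windows and build, with the same letters in capitals. Eno2 is at chr6:124769674-124769923 on the minus strand and Slc16a1 at chr3:104638414-104638663 on the plus strand.
Eno2: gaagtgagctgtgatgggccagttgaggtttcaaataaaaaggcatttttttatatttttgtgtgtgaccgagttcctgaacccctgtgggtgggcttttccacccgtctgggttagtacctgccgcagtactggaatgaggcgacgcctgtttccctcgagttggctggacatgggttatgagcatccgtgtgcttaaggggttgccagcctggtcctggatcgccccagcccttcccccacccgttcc
Slc16a1: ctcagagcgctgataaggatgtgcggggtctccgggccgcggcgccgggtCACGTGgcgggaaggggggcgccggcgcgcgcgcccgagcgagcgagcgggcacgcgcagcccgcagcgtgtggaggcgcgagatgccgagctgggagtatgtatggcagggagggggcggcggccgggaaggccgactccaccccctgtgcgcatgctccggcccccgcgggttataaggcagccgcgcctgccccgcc
Slc16a1 has the E-box palindrome, which holds the searched letters on both strands, 200 bases before the start, and Eno2 has no match. This palindrome is in 6.02% of all promoters and in 5 of the 49 member promoters, those of Ldha, Pfkfb2, Pfkfb3, Pfkm and Slc16a1.

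The same counts were made in the 5 classes outside the Six2 lineage. In stroma, the largest class with 1141 WT and 1991 KO cells, 0 of 32 members were past the mark in either direction, where 4.62% of all genes were higher and 3.27% lower. Pfkfb2 (1.76 and 2.53 CPM), Pfkfb3 (3.79 and 5.34 CPM) and Pfkp (3.95 and 5.34 CPM) had the highest ratios there, at 1.43, 1.41 and 1.35, and the better-counted Hk2 was at 33.8 and 42.7 CPM, a ratio of 1.27 (1.15 to 1.39). In endothelium 0 of 28 were past it (3.48% and 2.64% of all genes), where H6pd, with 31 and 70 UMIs, had the highest ratio, 1.41 (0.912 to 2.23), followed by Pdk1 at 37.8 and 50.5 CPM, a ratio of 1.34 (1.19 to 1.51). In ureteric bud and collecting duct 1 of 30 was higher (3.80%) and 0 lower (2.97%), Pfkp with 69 and 56 UMIs, or 7.85 and 13.9 CPM, a ratio of 1.77 (1.22 to 2.56) that was 0.19 on the log2 scale at a coarser clustering.

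Mural cells, the pericytes and smooth muscle of vessels, had 0 of 27 members higher (5.07% of all genes) and 4 lower (5.35%). Hk2 was at 41.6 and 21.1 CPM, a ratio of 0.506 (0.374 to 0.682), and Pfkfb3, with 48 and 34 UMIs, at 18.3 and 9.06 CPM, a ratio of 0.495 (0.309 to 0.784). Pgd was at 39.3 and 25.3 CPM, a ratio of 0.644 (0.482 to 0.860). Slc2a1 was at 43.1 and 26.7 CPM, a ratio of 0.618 (0.467 to 0.816), but its log2 ratio was between -0.18 and -0.26 in 6 other settings of cell filters and clustering. Hk2 and Pfkfb3 each kept their call in the 10 other settings in which they could be compared.

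Immune cells, 72 in WT and 196 in KO, had 4 of 24 members higher (6.56% of all genes) and 0 lower (8.74%). Slc2a3 had 25 and 164 UMIs, or 33.9 and 84.8 CPM, a ratio of 2.50 (1.63 to 3.97), Aldoa was at 220 and 339 CPM, a ratio of 1.54, and Hk2 at 51.6 and 79.1 CPM, a ratio of 1.53 (1.07 to 2.25). Pfkl, with 17 and 73 UMIs, had a ratio of 1.63 whose interval (0.955 to 2.96) includes 1. The class is a mixture of macrophages (cluster 21, 53 and 126 cells) and neutrophils (cluster 26, 19 and 70 cells), and Slc2a3 was at 9.22 and 19.0 CPM in the first and at 221 and 434 CPM in the second. With doublet candidates kept, the log2 ratio of Slc2a3 in the class was 0.21, so this value depended on which cells were counted. Averaged over the same cells instead of summed, that of Hk2 was -0.16, so it depended on how the cells were weighted.

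Among the 7 pentose phosphate enzymes only Rpia in the loop and Pgd in mural cells were past 1.5-fold, both lower in KO. H6pd in proximal tubule was at 44.5 and 66.6 CPM, a ratio just under the mark (1.38 to 1.62). G6pdx was between 0.877 and 1.18 in the 6 classes of the lineage, Tkt between 0.859 and 1.01, and Taldo1 between 0.801 in proximal tubule and 1.20 in podocytes. Pgd was between 0.936 and 1.30 in the same classes.

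Genes of the pathway outside the 34 were compared in the same classes. In proximal tubule Pklr, the pyruvate kinase of liver and kidney, had 327 and 1672 UMIs, or 14.6 and 78.7 CPM, a ratio of 5.40 (4.79 to 6.10), while Pkm was at 34.6 and 40.3 CPM. Fbp1, fructose 1,6-bisphosphatase of glucose synthesis, was at 1390 and 624 CPM, a ratio of 0.450, but its ratios within the finer clusters 19, 27, 29 and 39 were 0.789, 0.820, 0.906 and 0.579. The sodium-glucose transporter Slc5a2 was at 28.2 and 7.34 CPM, a ratio of 0.260. Of 28 other glycolytic isoforms and side branches 21 were compared there, with 5 higher and 3 lower, and of 15 other sugar and lactate transporters 11 were compared, with 1 higher and 4 lower. Of all genes compared in proximal tubule 10.0% were higher and 9.23% lower. In the loop Slc16a7, the MCT2 transporter, was at 278 and 863 CPM, a ratio of 3.10 (2.96 to 3.25), above Slc16a1 in both libraries.

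Hypoxia-responsive genes outside glycolysis and the regulators of the pathway were compared in the same way. Of 18 hypoxia-responsive genes 5 were higher and 0 lower in proximal tubule (17 compared, 10.0% and 9.23% of all genes). Distal tubule had 5 and 0 (15 compared, 9.79% and 8.86%) and the loop 3 and 2 (15 compared, 10.9% and 13.7%). Podocytes had 5 and 1 (16 compared, 10.2% and 6.13%), early nephron 3 and 0 (17 compared, 3.99% and 4.22%) and progenitors 1 and 1 (16 compared, 4.67% and 5.09%). The progenitor counts are near the shares of all genes. Ndrg1 was at 36.2 and 204 CPM in the loop, a ratio of 5.64, and at 31.6 and 64.7 CPM in early nephron, and Adm was at 6.15 and 20.3 CPM in proximal tubule. Among 14 regulators Txnip, an inhibitor of glucose uptake, was at 113 and 287 CPM in the loop and at 67.7 and 169 CPM in podocytes, and Ppargc1a, a coactivator of mitochondrial genes, at 38.7 and 114 CPM in podocytes and 3.94 and 10.9 CPM in progenitors. Of 13 genes of pyruvate entry into mitochondria Pdk4 was at 40.8 and 100 CPM in distal tubule, where Pdk1 was lower, as given above. Dissociation-response genes were compared as a sign of tissue handling. Of the 16 compared in proximal tubule 3 were higher (10.0% of all genes), with a median log2 ratio of 0.41. Their part in the ratios of the members was not tested.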

How the data were processed

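The deposited matrices hold raw UMI counts per gene and barcode, 1 per library, made by the authors with Cell Ranger (7.0.0 for WT and 7.1.0 for KO, per the file headers), bcl2fastq 2.20.0, STAR 2.7.2a and build GRCm38 (mm10), per the submitters' processing notes; whether intronic reads were counted is not given in the sources used here. The libraries hold 5572 and 5991 barcodes with 147390790 and 149679281 UMIs, no barcode under 500 UMIs, and 5 barcodes in common. Cells with at least 1000 UMIs, 500 genes and at most 20% mitochondrial UMIs were kept, and 187 and 242 doublet candidates by Scrublet score were removed, at 0.8% per 1000 cells, since its automatic threshold marked 3 and 2. Clustering (scanpy 1.11.5, 2000 variable genes, 40 components, Leiden resolution 1) left out the members and the other lists of pathway, regulator and hypoxia-responsive genes. The dissociation-response, cell cycle and tubule injury genes could enter it, so their levels in a cluster are not independent of the clustering. Clusters were named by marker score (minimum 0.35, lead 0.05), with red-cell markers left out after the data were seen; 214 WT and 123 KO cells stayed unnamed, and 42 and 14 intercalated cells were only counted. UMIs were summed per class and library and divided by nuclear-encoded totals. Ratios have exact conditional intervals, and shares exact Clopper-Pearson intervals, at 95%. Intervals cover counting error only, since 1 library per genotype gives no replicate. A share of 0 cells was given the limit that 3 counts allow, whereas intervals drawn for a level of 0 are the exact ones. The interval code was tested on simulated data. Reads of near-identical copies (Gapdh, Pgam1, Ldha, Aldoa, Pgk1 and Eno1 have such copies in the feature list) may be split or lost. Named genes are all members at 1.5-fold or more in a class of the Six2 lineage, with at most 3 highest and 3 lowest outside it, the main isoforms of each family, and genes of the other lists at 2-fold or more; Hk2-positive cells were singled out after their values were seen. Alternatives changed cell filters, doublet removal, clustering, scaling (edgeR 4.0.16 TMM, DESeq2 1.42.0 size factors), averaging, thinning and the UMI minimum. The members and lists were chosen with earlier results of these data known. Promoter sequences are from RefSeq, GRCm38.p6.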

Additional observations from a re-analysis of the deposited data

Results flagged for a closer look

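The 4 members named here were past 1.5-fold higher in KO in some class and past 1.5-fold lower in another. The difference between the classes was not tested, since each genotype has 1 library. How many of all genes did the same was not counted, so these 4 cannot be read as unusual. Of all genes 51.1% were past the mark in at least 1 class, in either direction. Slc2a1, the GLUT1 transporter, had a ratio of 2.67 in proximal tubule and 0.618 in mural cells. Its proximal log2 ratio turned to -0.31 without the clusters of 1 library, and its mural value was below the mark in 7 of 10 other settings. Hk2, the inducible hexokinase, had 6.86 in proximal tubule and 0.506 in mural cells, and Pfkfb3, the phosphofructokinase activator, 2.49 and 0.495 in the same classes; without the clusters of 1 library the proximal log2 ratios were 1.10 for Hk2 and 0.24 for Pfkfb3. Slc2a3, the GLUT3 transporter, had 2.50 in immune cells and 0.609 in nephron progenitors. The progenitor value was below the mark in 6 of 10 other settings, and the immune log2 ratio was 0.21 with doublet candidates kept.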

How the results depend on the processing

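No paired analysis was possible because each genotype has 1 library. Of the values that summarise a class (median log2 ratio, members higher, members lower), 233 moved little and 70 moved past their limit. Among values of single genes 311 moved little, 52 moved and 2 turned direction; the cause was not tested. The direction turned for Slc2a1 in proximal tubule without the clusters held at 90% or more by 1 library (log2 ratio -0.31) and for Hk2 in immune cells averaged over cells (-0.16).

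Leaving out those clusters gave 5 members higher and 0 lower in proximal tubule, and 9 lower with a median of -0.34 in the loop. With at most 10% mitochondrial UMIs, 6 members were higher and 0 lower in the loop, 2 higher and 1 lower in podocytes, 2 lower in distal tubule with a median of -0.04, and 0 lower in progenitors, early nephron and proximal tubule. At 3000 or more UMIs per cell, 5 were higher in podocytes, 1 was lower in the loop and 0 in progenitors and early nephron. With doublet candidates kept, 6 were higher in early nephron, 4 in podocytes and 4 in the loop, 1 was lower in the loop and 0 in progenitors, early nephron and proximal tubule, and the immune median was 0.18. At Leiden resolution 0.5, 5 were higher in podocytes and 5 in the loop, 1 was lower in the loop and 0 in progenitors, early nephron and proximal tubule. At resolution 2, 5 were higher in early nephron and 2 in podocytes, 1 was lower in the loop and 0 in early nephron and proximal tubule. With the pathway genes allowed in the clustering the same counts held for those classes, 5, 2, 1, 0 and 0, and 0 were lower in progenitors.

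TMM and median-of-ratios scaling each left 1 member lower in the loop, and a total that includes mitochondrial UMIs left 0 lower in proximal tubule. Averaged over cells, 3 were higher and 2 lower in podocytes, 2 lower in distal tubule, 4 lower in the loop and 0 lower in progenitors. Thinned to 3000 UMIs per cell, 1 was higher in progenitors, early nephron and the loop and 2 in proximal tubule, 1 was lower in the loop and 0 in progenitors, early nephron and proximal tubule, and the medians were 0.34 in distal tubule and -0.03 in early nephron. With a minimum of 10 UMIs, 7 were higher in distal tubule and 3 in podocytes, and 2 lower in proximal tubule. With a minimum of 200 UMIs, 1 was higher in distal tubule, early nephron and the loop, 1 was lower in the loop and 0 in progenitors, early nephron and proximal tubule. No distal tubule class was named at resolution 0.5 or with doublet candidates kept, so these gave no value for it. Members under 50 UMIs in a class could not be compared at this depth. Weighting clusters equally in proximal tubule and immune cells was chosen after seeing the data.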
